A study of Mus musculus with 12 samples.

Results

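miR-146a-5p and miR-146b-5p are a pair of inflammation-related microRNAs (miRNAs) that were each read by 5 probes on a mouse small RNA microarray. The 10 probes were taken by their probe identifiers from 9709 miRNA probes and 14192 small RNA probes in all. The array was applied to primary mouse aortic smooth muscle cells (MASMC) that had received either a siRNA against Oct4 (siOCT4) or a non-target siRNA (siNT) for 48 h without serum. The cells were then given 10 µg/mL of the oxidized phospholipid POVPC or its vehicle DMSO for 24 h. This gave 4 groups of 3 arrays each, which are named by siRNA and treatment (siNT-DMSO and siNT-POVPC for cells keeping OCT4, siOCT4-DMSO and siOCT4-POVPC after knockdown). Every group had therefore been transfected, starved of serum and exposed to vehicle, and no untransfected or serum-fed cells stood beside them. OCT4 (gene symbol Pou5f1) is a pluripotency transcription factor that smooth muscle cells can re-express in disease, and POVPC is one of the oxidized phospholipids that accumulate in atherosclerotic lesions. A siRNA knockdown is transient and partial, and it was not checked here because the probes used read small RNA.

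miRNAs are short RNAs that guide Argonaute proteins to messenger RNAs, mainly by pairing of the seed near their 5′ end, and lower the output of those messages. The miR-146 family is best known as a brake on innate immune signalling. NF-κB induces miR-146a after Toll-like receptor or cytokine stimulation, and miR-146a in turn represses the adaptors TRAF6 and IRAK1. miR-146b is made from a separate gene on another chromosome and shares the seed, so that both can act on much the same targets.

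The mature forms are shown with the seed (bases 2 to 8 from the 5′ end) in capitals, since the seed is what the pair have in common. Sequences and positions are those of RefSeq on GRCm38.p6, which places miR-146a-5p at chr11:43374435-43374456 on the minus strand within Mir146 and miR-146b-5p at chr19:46342790-46342811 on the plus strand within Mir146b.
miR-146a-5p: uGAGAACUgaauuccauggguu
miR-146b-5p: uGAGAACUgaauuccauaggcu
The seed GAGAACU was held by 2 of the 1679 mature miRNAs in the RefSeq table, and these were the pair described here. The mature forms were identical at 20 of 22 bases. Counted from the 5′ end of miR-146a-5p, the differences were G18A and U21C, both in the 3′ part of the molecule.

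The precursor hairpins differ far more than the mature forms and are shown with the 5p arm in capitals. The Mir146 hairpin (chr11:43374397-43374461, minus strand) has 65 bases and the Mir146b hairpin (chr19:46342762-46342870, plus strand) has 109.
Mir146 hairpin: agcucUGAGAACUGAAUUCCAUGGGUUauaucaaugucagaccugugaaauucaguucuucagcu
Mir146b hairpin: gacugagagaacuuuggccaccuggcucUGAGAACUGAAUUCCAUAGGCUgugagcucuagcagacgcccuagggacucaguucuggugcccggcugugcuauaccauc

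The probes are DNA complements of the mature forms, of 18, 19, 20, 21 and 22 nt for each miRNA. Their first base pairs with the cytidine that labelling adds to the 3′ end of the RNA, and their lengths differ at the end that faces the seed. The shortest and longest are shown with the bases opposite the 2 differing positions in capitals, because those bases alone tell the pair apart.
miR-146a-5p 18 nt probe: gaAccCatggaattcagt
miR-146a-5p 22 nt probe: gaAccCatggaattcagttctc
miR-146b-5p 18 nt probe: gaGccTatggaattcagt
miR-146b-5p 22 nt probe: gaGccTatggaattcagttctc
The 18 nt probes pair with bases 6 to 22 of the mature form, which include 3 bases of the seed, and the 22 nt probes with bases 2 to 22, which include all 7. The 5 probes of a miRNA thus read nested stretches of one molecule and are not independent of each other. A probe for one miRNA faces the other with 2 mismatches, and how far each probe cross-hybridizes was not measured. Levels were therefore compared between groups for the same probe, and between probes only as changes.

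All 10 probes were well above background on all 12 arrays and all passed the filter on dim probes, which kept 8621 miRNA probes. Before normalization the median signal of 11 arrays lay between 5.58 and 8.73, and that of siOCT4-DMSO replicate 3 was 24.1. According to the scanner headers, 8 arrays were scanned at one time and 4 at another. The first scan held all 6 siNT arrays with siOCT4-DMSO replicates 1 and 2, and the second held siOCT4-DMSO replicate 3 with the 3 siOCT4-POVPC arrays. The labels do not say that replicates came from separate cultures, so p-values measure the spread between these arrays, which may be technical. The probes of smooth muscle, endothelial and leukocyte marker miRNAs carry no name in the sources used here, so the cell type was not checked. In bulk RNA, fewer cells of a type and less RNA per cell cannot be told apart.

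Both miRNAs had their highest mean in siNT-DMSO cells, and the order of the other groups differed. Levels are given as the mean log2 normalized signal of the 5 probes on each array. miR-146a-5p read 7.78, 7.30 and 7.30 in siNT-DMSO, 6.16, 6.56 and 7.96 in siNT-POVPC, 5.99, 6.35 and 6.71 in siOCT4-DMSO and 6.16, 6.37 and 6.33 in siOCT4-POVPC. For miR-146a-5p the order was siNT-DMSO (7.46 ± 0.28, SD, n = 3), siNT-POVPC (6.89 ± 0.94), siOCT4-DMSO (6.35 ± 0.36) and last siOCT4-POVPC (6.28 ± 0.11). The arrays of each group overlapped those of its neighbour in this order, and the siOCT4 groups were nearly level. miR-146b-5p read 6.17, 4.80 and 5.93 in siNT-DMSO, 5.20, 5.28 and 6.02 in siNT-POVPC, 4.23, 4.15 and 4.32 in siOCT4-DMSO and 5.19, 5.43 and 5.36 in siOCT4-POVPC. For miR-146b-5p the order was siNT-DMSO (5.63 ± 0.73, SD, n = 3), siNT-POVPC (5.50 ± 0.45), siOCT4-POVPC (5.33 ± 0.12) and siOCT4-DMSO (4.23 ± 0.09). The upper 3 groups overlapped each other, and siOCT4-DMSO lay apart below all of them.

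The question of what OCT4 knockdown does without POVPC was addressed by siOCT4-DMSO against siNT-DMSO. Both miRNAs read lower after knockdown, with log2 changes of -1.21 to -1.0 over the probes of miR-146a-5p and of -1.57 to -1.05 over those of miR-146b-5p. Only 2 of the 10 probes, the 18 and 19 nt probes of miR-146a-5p, passed the test at an adjusted p under 0.05 and a fold of at least 1.5. Over all tested miRNA probes, 1.01% were called lower and 1.39% were called in either direction in this comparison.

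The 18 nt probe of miR-146a-5p (ASMM10SMR20MIRNA100000187TV1) read 6.33, 5.97 and 6.05 in siNT-DMSO replicates 1 to 3 and 4.67, 5.14 and 4.92 in siOCT4-DMSO replicates 1 to 3. Every knockdown array was lower than every control array. The fall was 1.21 on the log2 scale, or 2.31-fold (SE 0.18 log2, limma adjusted p = 0.0162), and under the alternative settings the adjusted p ran from 0.012 to 0.193. The 19 nt probe (ASMM10SMR20MIRNA100000185TV1) read 6.67, 6.23 and 6.13 in siNT-DMSO and 5.04, 5.26 and 5.28 in siOCT4-DMSO, and the groups again lay apart. It fell by 1.15 on the log2 scale (SE 0.19, limma adjusted p = 0.0241).

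The longer probes of miR-146a-5p changed by about as much but varied more among the knockdown arrays. The 22 nt probe (ASMM10SMR20MIRNA100000189TV1) read 8.87, 8.29 and 8.29 in siNT-DMSO and 6.97, 7.38 and 8.09 in siOCT4-DMSO, with replicate 3 close under the lowest control. Its change was -1.0 (SE 0.30, limma adjusted p = 0.308), and the limma adjusted p of the 20 and 21 nt probes was 0.149 and 0.193. All 5 probes of miR-146a-5p had knockdown arrays wholly below the control arrays, which held in this direction for 6.76% of all tested probes.

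miR-146b-5p had the larger difference by value, and none of its probes was called. At an unadjusted limma p under 0.05 with the same fold, all 10 probes of both miRNAs passed, against 3.12% of all tested probes that were lower by this rule. The 22 nt probe (ASMM10SMR20MIRNA100001444TV1) read 7.46, 6.05 and 7.24 in siNT-DMSO and 5.35, 5.44 and 5.50 in siOCT4-DMSO. The knockdown arrays were close together, and siNT-DMSO replicate 2 stood well under the other controls. The change was -1.49 (SE 0.34, limma adjusted p = 0.119), and over the 5 probes the limma adjusted p ran from 0.114 to 0.407. Groups lay apart for 4 of the 5 probes. The exception was the 18 nt probe (ASMM10SMR20MIRNA100001443TV1), at 4.73, 3.40 and 4.53 in siNT-DMSO and 3.24, 2.81 and 3.46 in siOCT4-DMSO, where the low control fell among the knockdown arrays.

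The count of called probes changed when the low control array, or another array, was left out. Averaged over 5 probes, siNT-DMSO replicate 2 lay 1.25 log2 below the mean of replicates 1 and 3 for miR-146b-5p and 0.25 below for miR-146a-5p. A drop of at least 1 log2 on this array was found for 1.15% of tested miRNA probes and for 2 of the 110 named miRNAs, miR-195a-5p and miR-146b-5p. Without this array, 7 of the 10 probes were called in limma, all 5 of miR-146b-5p among them. Over all 8621 tested probes, 167 were called without it and 120 with it. Without siNT-DMSO replicate 1, siNT-DMSO replicate 3 or siOCT4-DMSO replicate 1, none of the 10 was called. The calls over all tested probes were then 79, 72 and 85. The count thus moved with the arrays used, as did the count over all tested probes, and the cause was not tested. Leaving out any 1 array turned the direction of none of the probes followed for this. These were the 18, 19 and 22 nt probes of miR-146a-5p and the 20 and 22 nt probes of miR-146b-5p.

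The median change over 5 probes was -1.10 for miR-146a-5p and -1.49 for miR-146b-5p, against 0.04 over all tested probes. Among all tested probes, 2.24% changed by at least the former size and 1.46% by at least the latter, in either direction. With normexp background correction and an offset of 50 in place of the scanner's subtraction, the medians were -0.67 and -0.48. An offset makes log2 changes of dim probes smaller by construction, so these medians do not show the background method alone. At matched probe length the change of miR-146b-5p minus that of miR-146a-5p ranged from -0.48 to 0.16, with overlapping arrays at every length. Within the first scan, which leaves 3 control and 2 knockdown arrays, the 5-probe mean was lower by 1.29 log2 for miR-146a-5p and by 1.44 for miR-146b-5p.

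The response to POVPC in OCT4-deficient cells was read from siOCT4-POVPC against siOCT4-DMSO. All 5 probes of miR-146b-5p were higher with POVPC, by 0.77 to 1.28 on the log2 scale, with POVPC arrays wholly above DMSO arrays for each. The probes of miR-146a-5p lay between -0.31 and 0.22. No probe of either miRNA was called, as was true of every tested miRNA probe in this comparison (0% called), whereas 11.5% of tested probes had POVPC arrays wholly above DMSO arrays and 3.25% were higher at an unadjusted limma p under 0.05 with the same fold.

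The 22 nt probe of miR-146b-5p read 5.35, 5.44 and 5.50 in siOCT4-DMSO and 6.34, 6.56 and 6.57 in siOCT4-POVPC. The arrays were tight within each group and separate between groups. The change was 1.06, or 2.08-fold (SE 0.14 log2, limma adjusted p = 0.109). The 20 nt probe (ASMM10SMR20MIRNA100001440TV1), which had the lowest p, read 4.69, 4.79 and 4.64 in siOCT4-DMSO and 5.80, 6.08 and 6.10 in siOCT4-POVPC. Its change was 1.28 (SE 0.15, limma adjusted p = 0.093), and under the alternative settings the adjusted p ran from 0.00918 to 0.456. In the order of p over 8621 probes, the 5 probes of miR-146b-5p came at places 2, 3, 6, 33 and 224. Their median change was 1.08 against -0.033 over all tested probes, and 0.626% of tested probes changed by at least that size in either direction. With normexp background correction and its offset of 50 the median was 0.37. The mean over 5 probes was 4.23 without POVPC and 5.33 with it, and the latter lay within the range of the siNT arrays.

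For miR-146a-5p, which shares the seed, the groups overlapped at every probe length. Its 22 nt probe read 6.97, 7.38 and 8.09 in siOCT4-DMSO and 7.02, 7.25 and 7.24 in siOCT4-POVPC, so that the POVPC arrays sat inside the DMSO range. The change was -0.31 (SE 0.27, limma adjusted p = 0.613). Set side by side at the same length, the change of miR-146b-5p exceeded that of miR-146a-5p by 0.55 to 1.45 log2. For the 19 to 22 nt probes, the difference between the miRNAs on each array was higher on every POVPC array than on any DMSO array. These lengths are nested reads of the same molecules, and the share of other miRNA pairs so separated was not computed. At 22 nt the excess was 1.37 ± 0.28 (SE, n = 3 per group), and an exact two-sided permutation test of 3 against 3 arrays cannot give a p below 0.1.

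How far the 10 probes agreed within siOCT4-DMSO depended on its replicate 3, the bright array. For miR-146a-5p this array exceeded the mean of replicates 1 and 2 by 0.02 and 0.13 log2 at 18 and 19 nt and by 0.75, 0.88 and 0.91 at 20, 21 and 22 nt. For miR-146b-5p the same gap was 0.43 and 0.47 at 18 and 19 nt and -0.10, -0.23 and 0.11 at 20, 21 and 22 nt. Before normalization the signals of the 10 probes were 2.65 to 4.44 times the mean of the other 2 arrays. The 2 called probes of miR-146a-5p were thus those on which the bright array sat close to its group, and the part of its brightness in this was not tested. Within the second scan, which leaves this 1 DMSO array against 3 POVPC arrays, the 5-probe mean of miR-146b-5p was higher with POVPC by 1.00 and that of miR-146a-5p was lower by 0.42. Over all 6 arrays the median change of miR-146a-5p was -0.16, and it was 0.12 without the bright array, 0.14 and 0.02 with the alternative scalings to the 75th percentile, and -0.66 with scan as a block, so that its direction was not settled.

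In cells that kept OCT4, POVPC was compared with DMSO in the siNT groups. No probe passed the test, against 0.220% of all tested probes, and no probe had groups that lay apart, against 16.3%. The 22 nt probe of miR-146a-5p read 8.87, 8.29 and 8.29 in siNT-DMSO and 7.06, 7.40 and 8.91 in siNT-POVPC. POVPC replicates 1 and 2 lay below all controls, and replicate 3 lay above them. The change was -0.69 (SE 0.46, limma adjusted p = 0.689), and the other 4 probes of miR-146a-5p had changes of -0.41 to -0.66.

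The 22 nt probe of miR-146b-5p read 7.46, 6.05 and 7.24 in siNT-DMSO and 6.31, 6.36 and 7.20 in siNT-POVPC, with broad overlap. Over its 5 probes the change ran from -0.29 to -0.04 (limma adjusted p = 0.87 to 0.976). The SE of the 22 nt probe was 0.40 log2 here and 0.14 in the siOCT4 cells. For miR-146a-5p, siNT-POVPC replicate 3 lay 1.60 log2 above the mean of replicates 1 and 2, and for miR-146b-5p 0.78 above. An excess of at least 1 log2 on this array was found for 0.36% of tested miRNA probes, and miR-146a-5p was the 1 named miRNA of 110 that had it. Without it, the median change of miR-146a-5p was -1.17 and no probe was called.

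OCT4 knockdown in POVPC-treated cells (siOCT4-POVPC against siNT-POVPC) gave changes of -0.58 to -0.64 for miR-146a-5p and of -0.12 to -0.28 for miR-146b-5p. None was called, against 2.67% of tested probes, and none had separate groups, against 18.7%. The 22 nt probe of miR-146a-5p read 7.06, 7.40 and 8.91 in siNT-POVPC and 7.02, 7.25 and 7.24 in siOCT4-POVPC. The knockdown arrays lay near siNT-POVPC replicates 1 and 2, and replicate 3 stood alone above them. The change was -0.62 (SE 0.44, limma adjusted p = 0.678), and without that replicate the median change of miR-146a-5p was -0.08. Within these 6 arrays each group lies in a scan of its own, so scan and knockdown cannot be told apart from them alone. With all 12 arrays in 1 fit and scan as a block, where only siOCT4-DMSO replicate 3 against replicates 1 and 2 sets the scan term, the median change of miR-146a-5p was -1.39 and no probe was called (limma adjusted p = 0.263 for the 22 nt probe, at -1.53).

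Whether POVPC acted differently with and without OCT4 was tested as the difference of the POVPC effects over all 12 arrays. It was 0.84 to 1.45 for the 5 probes of miR-146b-5p and 0.38 to 0.63 for those of miR-146a-5p. limma called none of the 10 and 0% of all tested probes. For the 22 nt probes the difference was 1.35 (SE 0.45, limma adjusted p = 0.88) for miR-146b-5p and 0.38 (SE 0.57, limma adjusted p = 0.977) for miR-146a-5p. Without siNT-POVPC replicate 3 the median difference of miR-146a-5p was 1.06 in place of 0.49. With normexp background correction and its offset of 50, that of miR-146b-5p was 0.44 in place of 1.35. At an unadjusted limma p under 0.05, 4 probes of miR-146b-5p and none of miR-146a-5p passed, and 1.54% of all tested probes were higher by that threshold with a fold of at least 1.5.

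Of 21 miRNAs listed as regulators or products of Toll-like receptor and NF-κB signalling, 7 could be named by probe, and all of their 35 probes were tested. The probe names come from lists that the study drew up from these same samples, so their directions are not independent evidence. After knockdown under DMSO, 3 of the 35 probes were called lower and none higher, against 1.01% of all tested probes called lower. The median change of the 35 probes was -0.45 against 0.04 over all tested probes. The 3 called probes read let-7i-5p, a member of the let-7 family for which Toll-like receptor 4 is a described target. Its lowest adjusted p came with a change of -1.23 (SE 0.18, limma adjusted p = 0.0162). With POVPC in siOCT4 cells none was called, against 0% of all tested probes, and the median was 0.56 against -0.033. After knockdown under POVPC, 3 probes were called lower, all of miR-27b-3p, against 1.66% of all tested probes called lower, and the median was -0.05. In siNT cells POVPC gave no call, against 0.220% of all tested probes, and a median of 0.26.

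The named miRNAs whose level followed miR-146b-5p most closely over the 12 arrays were miR-195a-5p (Pearson r = 0.933), miR-30c-5p (r = 0.923) and let-7i-5p (r = 0.85), out of 109 others. miR-195a-5p read 6.90, 5.31 and 6.78 in siNT-DMSO, 6.28, 5.98 and 6.63 in siNT-POVPC, 5.07, 5.00 and 5.21 in siOCT4-DMSO and 5.63, 5.71 and 5.67 in siOCT4-POVPC. It thus shared the low siNT-DMSO replicate 2, the low siOCT4-DMSO group and the higher siOCT4-POVPC group. miR-146a-5p had looser companions, led by miR-6999-5p (r = 0.70), miR-669m-3p (r = 0.687) and miR-467e-3p (r = 0.666). Between miR-146a-5p and miR-146b-5p themselves r was 0.633, which put miR-146b-5p at place 9 among the companions of miR-146a-5p and miR-146a-5p at place 32 among those of miR-146b-5p. These correlations describe 12 arrays that share a normalization and fall into 4 groups. The named miRNAs come from lists that the study drew up from these same samples, so the places have no unselected background.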

How the data were processed

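Total RNA of 12 samples was labelled at the 3′ end with Cy3 and hybridized to 1-colour Arraystar mouse small RNA arrays. Per the labels and methods, the authors read the scans with Agilent Feature Extraction 11.0.1.1 and quantile-normalized them in GeneSpring. The deposited scanner files hold the processed signal intensity of each spot, already background-subtracted, and a deposited value table holds the authors' normalized log2 values, which served as an alternative. Here control spots and outlier flags were left out, spots of a probe were averaged, all small RNA probes were quantile-normalized, and log2 was taken above a floor of 1. Tests ran on 8621 miRNA probes well above background on at least 3 of 12 arrays, with limma 3.58.1 (R 4.3.3) on the 6 arrays of a comparison or the 12 arrays of the difference, and Benjamini-Hochberg adjustment over all 8621. A limma fit for OCT4 knockdown under DMSO was tried on simulated data with independent normal noise, and the other fits were not. A probe was called at an adjusted p under 0.05 with a fold of at least 1.5. The number of arrays limits the precision.

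Groups follow the source names. The free-text descriptions name the non-target siRNA with DMSO for 9 samples whose source names say otherwise. The files give probe identifiers only, and 520 probes of 110 miRNAs were named through the study's own lists. The text gives all 10 members, the lowest-p or longest probe in full, the 3 named miRNAs closest in r, and a list of related miRNAs. Members and lists were chosen with earlier results of these data known. The alternatives were other scalings, background correction, floor, filters, test, threshold, scan as a block (arrays of 1 scan time), replicate block and leaving out each array.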

Additional observations from a re-analysis of the deposited data

How the results depend on the processing

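For OCT4 knockdown under DMSO (2 probes called), the count was 0 with normexp (offset 50), a floor of 8 or the methods' adjusted t-test. These settings called 36, 61 and 15 of all 8621 probes, against 120 in the main setting. It was 4, all of miR-146b-5p, with all 12 arrays in 1 fit (212 of all probes). With scan as a block in that fit it was 1 (217). At unadjusted p it was 10 in limma (415) and 8 by the methods' t-test (287), and leaving out 1 array gave 0 to 7. For POVPC in siOCT4 cells, where none was called, the count was 4 with the 75th percentile of all probes and 3 with that of probes detected above background on all 12 arrays. It was 2 with a floor of 8, 3 when tests were limited to probes of that kind, and 4 with scan as a block, where siOCT4-DMSO replicate 3 is the only DMSO array of its scan. Of these 4, 3 were miR-146b-5p probes that were higher and 1 was the 22 nt probe of miR-146a-5p, which was lower (-0.92, limma adjusted p = 0.0415), and the same setting called 1016 of all 8621 probes. At unadjusted p it was 5 in limma and 5 by the methods' t-test. For the difference of the POVPC effects it was 4 in limma and 4 by the t-test at unadjusted p. The all-array fit with scan and the t-test at unadjusted p were added after seeing the data. The cause of these shifts was not tested.

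Direction turned for values that were not called. For 22 nt probes, the change of miR-146a-5p for POVPC in siOCT4 cells was 0.02 with the 75th percentile of all probes, that of miR-146b-5p for knockdown under POVPC was 0.15 without siNT-POVPC replicate 3 (leaving out 1 array gave -0.29 to 0.15), and the miR-146a-5p difference of POVPC effects was -0.23 with scan as a block. Among medians of 5 probes, that of miR-146a-5p for POVPC in siOCT4 cells was 0.14 and 0.02 with the 75th-percentile scalings and 0.12 without siOCT4-DMSO replicate 3, and its difference of POVPC effects was -0.04 with scan as a block. That of miR-146b-5p was 0.13 for knockdown under POVPC without siNT-POVPC replicate 3. For POVPC in siNT cells it was 0.18, 0.04 and 0.03 without siNT-DMSO replicate 1, siNT-DMSO replicate 3 and siNT-POVPC replicate 1. Within the 6 arrays of POVPC in siNT cells or of knockdown under POVPC, scan could not be fitted as a block. With this block over all 12 arrays, neither had a called member, against 0 and 646 of all probes.

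Array deviations correlated at -0.241 to 0.425 within a replicate number and -0.533 to 0.326 across, too alike to judge pairing. With the replicate number as a block, knockdown under DMSO had 2 calls, 1 for each miRNA, and the change of -1.15 of the 19 nt miR-146a-5p probe had a limma adjusted p of 0.058, within a range of 0.0165 to 0.211 over all alternatives. The other comparisons had 0 calls under the block.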
